A study of Mus musculus with 6 samples.

Results

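Olfr78 and Olfr558 are a pair of olfactory receptor genes whose transcripts were measured by RNA sequencing outside the nose, in the carotid body and the adrenal medulla of adult mice. The deposited table holds 1133 rows whose name starts with Olfr, among 26728 rows in all, and these 2 were picked by name for their higher level in the carotid body than in the adrenal medulla. Their levels and their difference between the tissues are therefore given as a description, with no test, and the other 1131 rows of the family serve as the background. The carotid body libraries were made from pools of 18 carotid bodies and the adrenal medulla libraries from pools of 10 adrenal medullas, each pool from 10 untreated adult C57/BL6 mice, with 3 pools of each tissue. The carotid body is the chemosensory organ at the fork of the carotid artery that monitors arterial oxygen, and the adrenal medulla is the related, catecholamine-secreting core of the adrenal gland. Each pool is 1 library, so n counts pools, and no allele or agent separates the groups.

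Olfactory receptors are G protein-coupled receptors. In the olfactory epithelium each sensory neuron typically uses a single receptor gene of this very large family, and odorant binding activates the G protein subunit encoded by Gnal, the adenylyl cyclase encoded by Adcy3 and a cyclic nucleotide-gated channel. Some receptors are also made in other organs. Olfr78 responds to short-chain fatty acids such as acetate and propionate, and has been described in blood vessels, in the renin-secreting cells of the kidney and in the glomus cells of the carotid body, where its part in oxygen sensing has been debated. Olfr558 responds to short-chain and branched fatty acids such as butyrate and isovalerate and has been described in vascular smooth muscle.

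The genes are close neighbours on chromosome 7 and are related in sequence. In the GENCODE M21 annotation of GRCm38 their coding sequences have 960 bases (Olfr78) and 951 bases (Olfr558) and are 63.1% identical, against a median identity of 52.5% between Olfr78 and the 1103 other Olfr genes with a coding sequence there. For Olfr78, Olfr558 was the closest of these, followed by Olfr641 at 61.8%. For Olfr558, Olfr641, Olfr78 and Olfr557 were level at 63.1%. The stretch around the longest run of identical bases in the aligned coding sequences of Olfr78 and Olfr558 is shown. Such a run bears on whether reads of one gene could be counted for the other. The stretch lies in the region that encodes the conserved motif at the end of the third membrane-spanning segment. Capitals mark the longest run of identical bases shared by Olfr78 and Olfr558, and in the other genes the bases aligned to that run. Olfr33 and Olfr559 lie between the pair, and Olfr560 lies next to Olfr78 and overlaps it.
Olfr78: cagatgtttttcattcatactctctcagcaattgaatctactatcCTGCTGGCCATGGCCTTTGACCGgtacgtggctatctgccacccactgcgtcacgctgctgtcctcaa
Olfr558: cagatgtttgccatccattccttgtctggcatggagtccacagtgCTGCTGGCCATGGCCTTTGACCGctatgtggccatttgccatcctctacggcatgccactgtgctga
Olfr33: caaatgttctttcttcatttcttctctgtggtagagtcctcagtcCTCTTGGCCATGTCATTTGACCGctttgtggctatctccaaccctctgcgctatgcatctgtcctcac
Olfr559: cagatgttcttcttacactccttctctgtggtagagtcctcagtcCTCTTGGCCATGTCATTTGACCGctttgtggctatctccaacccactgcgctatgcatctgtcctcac
Olfr560: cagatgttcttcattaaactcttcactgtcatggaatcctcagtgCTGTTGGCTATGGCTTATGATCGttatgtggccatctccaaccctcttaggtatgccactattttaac
These are coding bases 295 to 407 of Olfr78, 304 to 415 of Olfr558, 316 to 428 of Olfr33 and of Olfr559, and 304 to 416 of Olfr560, counted from the first base of the start codon. The shared run of Olfr78 and Olfr558 is 23 bases long. Of those 23 bases, Olfr33 and Olfr559 each match 19 and Olfr560 matches 18.

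Read sharing was checked over whole annotated transcripts in words of 30 bases, a length chosen here because the read length is not given in the sources used. Of 3012 such words in Olfr558, 72 occur in transcripts of another gene. All 72 lie in Gm45688, a short pseudogene annotated on the opposite strand within Olfr558. Olfr78 has 6014 words over 4 annotated transcripts, and 925 of them, 15.4%, occur elsewhere. Olfr560 accounts for 869 of these, since its annotated transcripts overlap those of Olfr78 on the same strand. The Olfr560 row of the deposited table held 1 read in all 6 libraries. Transcripts of 3061 genes hold some of the 925 words, with Tmem74 next after Olfr560. How far reads of such words entered the Olfr78 row cannot be told from these values. This limit weighs most in the adrenal medulla, where the row held 70, 67 and 23 reads in pools 1, 2 and 3. The Olfr78 row combines 2 RefSeq transcripts under a single mRNA length of 3.496 kb, so its alternative first exons cannot be told apart in these values.

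Olfr78 was abundant in the carotid body and scarce in the adrenal medulla. Values are RPKM, the authors' read counts scaled to mRNA length and library depth, and the reads behind them were recovered from RPKM and mRNA length. Olfr78 stood at 70.1, 128 and 103 RPKM in carotid body pools 1, 2 and 3, against 1.49, 1.34 and 0.40 RPKM in adrenal medulla pools 1, 2 and 3. The highest adrenal medulla pool reached 2.13% of the lowest carotid body pool, so the tissues did not overlap. These values rest on 3557, 5948 and 5631 reads in the carotid body and on 70, 67 and 23 reads in the adrenal medulla. The means were 101 ± 29.2 RPKM in the carotid body, against 1.08 ± 0.591 RPKM in the adrenal medulla (SD over the 3 pools of each tissue), a ratio of 93.4. By mean RPKM, Olfr78 ranked 937 among the 23511 rows with a length in the carotid body, within the top 3.99%, and 12581 in the adrenal medulla.

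Olfr558 had the same direction at a lower level. It stood at 14.9, 11.7 and 11.7 RPKM in carotid body pools 1, 2 and 3, against 0.0764, 0.168 and 0.0624 RPKM in adrenal medulla pools 1, 2 and 3. In reads these are 633, 455 and 533 in the carotid body, against 3, 7 and 3 in the adrenal medulla, too few for a close estimate of its level there. The means were 12.8 ± 1.85 RPKM in the carotid body, against 0.102 ± 0.0572 RPKM in the adrenal medulla (SD, n = 3), a ratio of 125. Its mean ranked 5114 among the same rows in the carotid body, while in the adrenal medulla it ranked 16322. Summed over pools and scaled to depth, the ratio of reads was 96.4 for Olfr78, with an exact 95% interval of 82.5 to 113, and 127 for Olfr558, with an interval of 74.1 to 239. The intervals overlap, and they cover counting error only, because amplified reads carry no molecular identifiers.

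**Figure D1:**
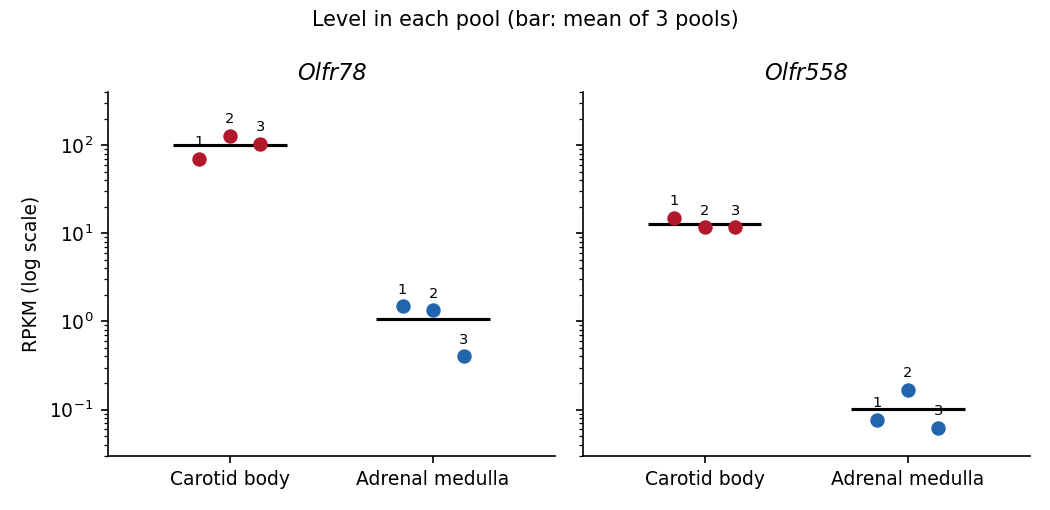
RPKM of Olfr78 (left) and Olfr558 (right) on a log axis in each of 3 carotid body pools (red) and 3 adrenal medulla pools (blue), numbered by pool, with black bars for the means. Olfr78 averaged 101 RPKM in the carotid body, against 1.08 RPKM in the adrenal medulla, Olfr558 12.8 and 0.102 RPKM, with no overlap between the tissues for either gene.

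On the log2(RPKM + 1) scale the difference, carotid body minus adrenal medulla, was 5.61 ± 0.31 for Olfr78 and 3.64 ± 0.19 for Olfr558 (SE of the fit). Adding 1 to RPKM shrinks the difference of a gene that is near 0 in the lower tissue, so the order of the pair on this scale is opposite to that of their ratios. With 0.1 in place of 1 the differences became 6.54 and 6.02, and in a fit to the recovered reads 6.73 and 6.93. Among the 13357 genes at or above 1 RPKM in 3 or more libraries, Olfr78 ranked 10 and Olfr558 ranked 83 by this difference. Both passed that minimum through their carotid body values, and for both all 3 carotid body pools lay above all 3 adrenal medulla pools, as for 22.3% of the genes tested. As the genes were picked on this contrast, nothing further is read from that count. The libraries are of whole tissue, where fewer cells of a type and less RNA per cell cannot be told apart.

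Within the carotid body the pools did not rank alike for the pair. Olfr78 spanned 1.83-fold between its lowest and highest carotid body pool (pools 1 and 2), with a coefficient of variation of 29.0%. Olfr558 spanned 1.27-fold, was highest in pool 1, where Olfr78 was lowest, and had a coefficient of variation of 14.5%. The level of Olfr78 per unit length was 4.70, 10.9 and 8.83 times that of Olfr558 in carotid body pools 1, 2 and 3. In the adrenal medulla it was 19.5, 8.0 and 6.41 times that of Olfr558, with 3 to 7 reads of Olfr558 in the denominator. In every library Olfr78 was the higher of the pair. Within the adrenal medulla the levels spanned 3.73-fold for Olfr78 and 2.69-fold for Olfr558, and pool 3 was the lowest for both.

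Cell type markers differed between the same libraries. Over all 13357 genes tested, limma called 21.9% between the tissues, 14.2% higher and 7.73% lower in the carotid body, at a Benjamini-Hochberg adjusted p under 0.05. Smooth muscle and pericyte markers, the list closest to the vascular sites known for both receptors, summed to 2793 to 3581 RPKM in the carotid body, against 157 to 168 RPKM in the adrenal medulla, with 14 of 15 genes called higher in the carotid body. Within the carotid body that sum was 3581, 2881 and 2793 RPKM in pools 1, 2 and 3. Rgs5 alone gave 1770, 1773 and 1465 RPKM of it, and Rgs4 gave 431, 271 and 175 RPKM. Which cells held the transcripts of these genes cannot be told in whole tissue, so the sum is not a measure of vascular cells. Not all members shared the order of the sum. Acta2 was highest in pool 1, at 830 RPKM, and Tagln in pool 3, at 395 RPKM. The 13 glomus and chromaffin cell markers summed to 3009 to 3890 RPKM in the carotid body, against 14718 to 24351 RPKM in the adrenal medulla. Chga, Chgb and Scg2 gave most of the adrenal medulla sum, with means of 4743, 7144 and 3468 RPKM. In the carotid body 2 markers, Ddc and Stmn2, were called higher, 5 were called lower and 6 were not called. Th was among those called lower, but not without carotid body pool 1 (limma adjusted p = 0.0693) or 2 (0.0611) or adrenal medulla pool 2 (0.0869). Adipocyte markers summed to 391, 3636 and 880 RPKM in carotid body pools 1, 2 and 3, and to 713, 229 and 2222 RPKM in adrenal medulla pools 1, 2 and 3. None of the 6 adipocyte markers was called by limma, and 0 passed at an unadjusted p under 0.05 or with voom. The part of these cell types in the levels of Olfr78 and Olfr558 was not tested. With carotid body pool 2 and adrenal medulla pool 3 left out, the pools with the most adipocyte transcripts in each tissue, the log2 difference was 5.16 for Olfr78 and 3.67 for Olfr558.

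Most of the receptor family had no reads in either tissue. Of the 1121 other Olfr rows with an mRNA length, 1029, or 91.8%, had 0 reads in all 6 libraries, and another 57 had 1 to 3 reads in total. In the 3 carotid body libraries 31, 32 and 30 of the other rows had at least 1 read, against 48, 46 and 30 in the adrenal medulla libraries. The mean numbers were 31.0 ± 1.00 rows in the carotid body and 41.3 ± 9.87 rows in the adrenal medulla (SD, n = 3), a difference that did not pass an exact two-sided permutation test over libraries (p = 0.4, adjusted p = 0.4 over 2 such tests, where 0.1 is the smallest p that 3 against 3 allows). The number was higher in 2 of 3 adrenal medulla libraries than in any carotid body library and equal to the lowest carotid body library in adrenal medulla pool 3. Counting only rows with at least 3 reads, the numbers were 15, 17 and 14 in carotid body pools 1, 2 and 3. In adrenal medulla pools 1, 2 and 3 they were 20, 13 and 14. The remaining 10 Olfr rows have no mRNA length and held 1 read in total.

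Together, scaled to depth (RPM), the other rows took 89.2, 82.2 and 79.1 RPM in carotid body pools 1, 2 and 3, against 59.3, 88.7 and 63.1 RPM in adrenal medulla pools 1, 2 and 3. The groups overlapped, and the means of 83.5 ± 5.19 RPM in the carotid body and 70.4 ± 16 RPM in the adrenal medulla did not pass the exact permutation test (p = 0.3, adjusted p = 0.4). Olfr78 alone supplied 64.9%, 79.4% and 76.1% of all Olfr reads in carotid body pools 1, 2 and 3, with exact 95% binomial intervals of 63.6% to 66.1%, 78.4% to 80.3% and 75.2% to 77.1%. In adrenal medulla pools 1, 2 and 3 its share was 8.05%, 5.0% and 2.16%. Olfr558 supplied 11.5%, 6.07% and 7.21% of the Olfr reads in carotid body pools 1, 2 and 3, and 0.345%, 0.522% and 0.282% in adrenal medulla pools 1, 2 and 3.

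**Figure D2:**
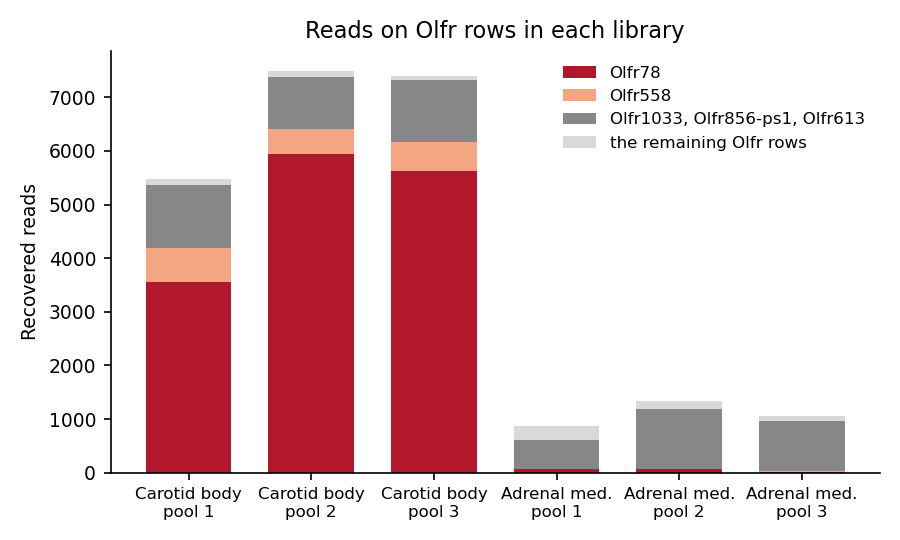
Stacked bars of the reads recovered on Olfr rows in each library, split into Olfr78, Olfr558, the 3 other rows with the most reads and all remaining Olfr rows. Olfr78 fills 64.9% to 79.4% of the carotid body bars and 2.16% to 8.05% of the adrenal medulla bars.

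A few other rows were read in both tissues. Olfr1033, Olfr856-ps1 and Olfr613 together held 87.7% of the 6716 reads of the other rows, and they were the only others of 1121 to pass the minimum for testing. Of their words of 30 bases, 10.8%, 0.979% and 6.78%, in that order, occur in transcripts of other genes. Words of Olfr1033 occur in 266 other genes and words of Olfr613 in 318. Olfr856-ps1, a pseudogene, was the highest of them in the carotid body, at 11.5, 15.1 and 14.4 RPKM in pools 1, 2 and 3, against 5.08, 16.8 and 4.59 RPKM in adrenal medulla pools 1, 2 and 3. It exceeded Olfr558 in carotid body pools 2 and 3, where Olfr558 ranked 3 among the Olfr rows, but not in pool 1, where Olfr558 ranked 2. Olfr78 was the highest Olfr row in all 3 carotid body libraries, at 6.10 to 8.52 times the highest row outside the pair. In the adrenal medulla it ranked 6, 4 and 8 in pools 1, 2 and 3, and Olfr558 ranked 43, 15 and 24.

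None of these 3 rows was called between the tissues. Olfr1033 averaged 8.53 ± 1.33 RPKM in the carotid body, against 7.86 ± 3.03 RPKM in the adrenal medulla (log2 0.15, limma adjusted p = 0.784). The log2 difference was 0.78 for Olfr856-ps1 (limma adjusted p = 0.248) and 0.58 for Olfr613 (adjusted p = 0.295). In both of these adrenal medulla pool 2 stood apart from pools 1 and 3, and without it they were called higher in the carotid body, at 1.32 (limma adjusted p = 0.0127) and 0.98 (0.0349). A further 6 of the 10 other rows with the most reads, namely Olfr920, Olfr1372-ps1, Olfr536, Olfr456, Olfr287 and Olfr1443, held 39 to 116 reads each over all libraries. Next was Olfr574, with 30.

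**Figure D3:**
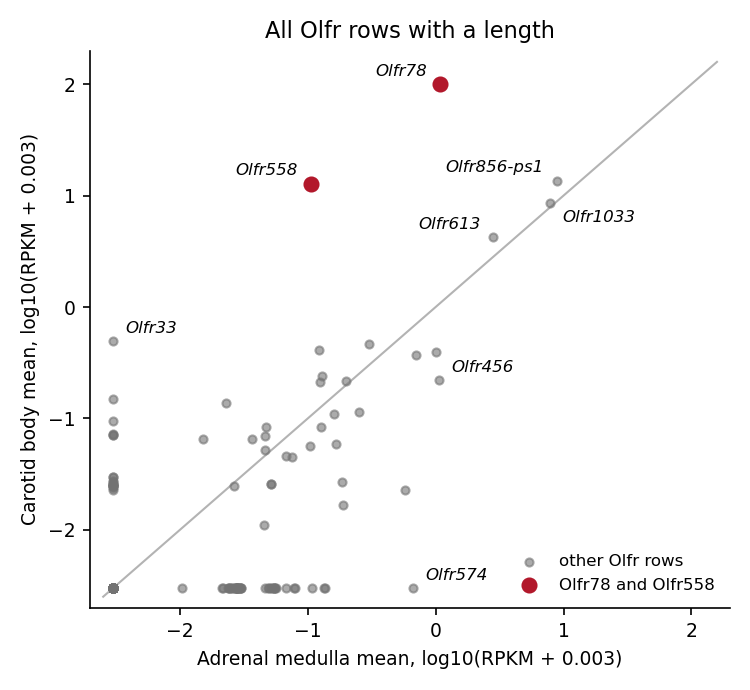
Mean RPKM of each of the 1123 Olfr rows with a length, in the carotid body (vertical) against the adrenal medulla (horizontal), both as log10(RPKM + 0.003), with the line of equality. Most rows lie on a single point at 0 in both tissues, Olfr1033, Olfr856-ps1 and Olfr613 lie at or just above the line, and Olfr78 and Olfr558 (red) lie far above it.

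No other receptor gene beside the pair came near its level. The RefSeq gene table of GRCm38.p6, used for gene order only because the reads were aligned to mm9, lists 3 genes between Olfr558 and Olfr78, which are Olfr33, Olfr559 and a small nucleolar RNA gene. Olfr33 held 13, 5 and 2 reads in carotid body pools 1, 2 and 3 and 0 in all 3 adrenal medulla libraries, at least 6.79-fold higher in the carotid body against a floor of 3 counts over the adrenal medulla group. Its carotid body level was 0.936, 0.394 and 0.134 RPKM in pools 1, 2 and 3, far below both members of the pair, and highest in the pool where Olfr558 was highest. In GENCODE Olfr33 is encoded on the opposite strand to Olfr558 and ends next to its 3′ end, and whether the library kept strand is not given in the sources used here. Reads of Olfr33 and reads from Olfr558 transcripts that run past its annotated end cannot be told apart in these values. Olfr559 had 2, 0 and 2 reads in carotid body pools 1, 2 and 3 and 0 in the adrenal medulla.

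Outside the pair the receptor genes next to it were at or near 0. Olfr557 and Olfr556, on the far side of Olfr558, had 0 reads in all 6 libraries. Olfr560 and Olfr561, on the far side of Olfr78, had 1 read each, in carotid body pools 3 and 2. Trim68, a tripartite-motif gene that lies among the receptor genes but belongs to another family, was read in both tissues, at 1.79, 2.68 and 1.94 RPKM in carotid body pools 1, 2 and 3 against 4.55, 3.52 and 2.24 RPKM in adrenal medulla pools 1, 2 and 3. It was not called (log2 -0.48, limma adjusted p = 0.226), but was called lower in the carotid body without adrenal medulla pool 3 (-0.69, adjusted p = 0.0490) and without that pool and carotid body pool 2 (-0.81, 0.0305). Over the whole of chromosome 7, 213 of 234 other Olfr rows had 0 reads. The RefSeq promoter window of Olfr558, 250 bases before to 50 after its start, was searched on both strands for 5 motifs and held none. ACGTG, the core of the hypoxia response element, occurs in 19.6% of the 32851 such windows over all genes and in 8.33% of the 948 windows of Olfr genes. The homeodomain motif TAATTA occurs in 5.29% of all windows and 18.6% of Olfr windows, and the palindromic EBF motif in 0.904% and 0.527%. The GATA factor motif AGATAA occurs in 11.2% of all windows and 28% of Olfr windows, and the core promoter motif TATAAA in 13.6% and 41.0%. The promoter of Olfr78 was not analysed here.

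**Figure D4:**
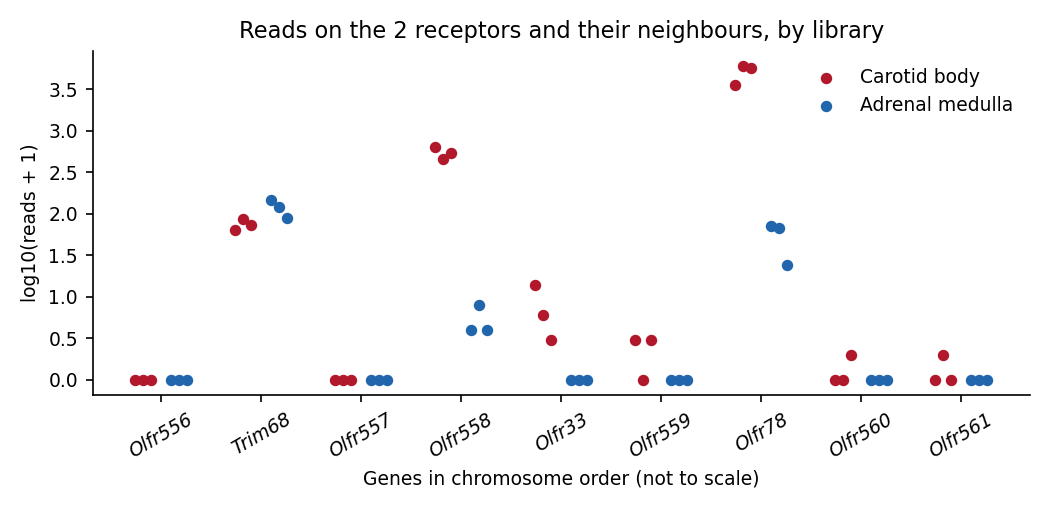
Reads in each library, as log10(reads + 1), on Olfr78, Olfr558 and the genes around them in chromosome order, with carotid body libraries in red left of adrenal medulla libraries in blue. The receptor genes between and beside the pair hold 0 to 13 reads in any library, against 455 to 5948 for the pair in the carotid body.

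The genes whose pattern was most like each receptor were found by the root mean square difference over the 6 libraries of log2(RPKM + 1), each gene centred on its own mean. For Olfr78 the nearest of the 13357 genes were Gap43, a protein of growing axons, at 0.24, Pkib, an inhibitor of cAMP-dependent protein kinase, at 0.26, and the diacylglycerol kinase gene Dgkh at 0.27. Rgs5, a regulator of G protein signalling from the smooth muscle and pericyte list, followed at 0.31. After it came Sfrp2, a secreted modulator of Wnt signalling, at 0.37. Pkib averaged 112 ± 40.6 RPKM in the carotid body, against 1.64 ± 0.279 RPKM in the adrenal medulla (SD, n = 3), close to the values of Olfr78. For Olfr558 the nearest was the homeobox gene Dlx5, which acts in craniofacial development, at 0.09, with 13.2 ± 0.503 RPKM in the carotid body, against 0.130 ± 0.0601 RPKM in the adrenal medulla. Serping1, the C1 inhibitor of complement, followed at 0.14, the organic anion transporter gene Abcc2 at 0.14, the noncoding RNA gene H19 at 0.16 and Art3, of the ADP-ribosyltransferase family, at 0.18. Olfr558 itself ranked 80 in likeness to Olfr78, at 1.08. The 6 libraries form 2 tissues, so likeness mostly reflects the size of the difference between them.

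The signalling machinery of olfactory neurons was present only in part. Of 21 genes in the transduction list, 13 reached the minimum for testing, 3 were called higher in the carotid body, 1 was called lower and 9 were not called. Of all genes tested, 14.2% were called higher and 7.73% lower. The list's median log2 difference was 0.22, against 0.02 over all genes tested. Gnal, the olfactory G protein alpha subunit, was at 8.51, 13.7 and 10.5 RPKM in carotid body pools 1, 2 and 3, against 4.63, 4.27 and 2.71 RPKM in adrenal medulla pools 1, 2 and 3 (log2 1.29 ± 0.26 SE, limma adjusted p = 0.00765). Gng8, a G protein gamma subunit of immature olfactory neurons, averaged 8.16 ± 2.14 RPKM in the carotid body, against 0.903 ± 0.152 RPKM in the adrenal medulla (log2 difference 2.24, adjusted p = 2.00e-04). Gnas, the widely expressed stimulatory alpha subunit that couples to the same cyclase, averaged 1758 ± 115 RPKM in the carotid body, against 979 ± 51.3 RPKM in the adrenal medulla, far above Gnal in both (log2 difference 0.84, adjusted p = 0.0419). Rgs2, a regulator of G protein signalling that also inhibits adenylyl cyclase, was lower in the carotid body, at 29.3 ± 20.6 RPKM against 156 ± 55.2 RPKM in the adrenal medulla (log2 difference -2.52, adjusted p = 0.00395).

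The call of Gnas was not stable. It ended with the replicate number as a block (limma adjusted p = 0.0573), with median-ratio scaling (0.105) and with quantile scaling (0.0544). It also ended when pool 1 (0.0955) or 3 (0.160) of the carotid body or any adrenal medulla pool (0.137, 0.142 and 0.0634 for pools 1, 2 and 3) was left out. Adcy3, the cyclase of olfactory neurons, averaged 3.15 ± 0.760 RPKM in the carotid body and 5.16 ± 0.376 RPKM in the adrenal medulla, a difference that was not called (log2 -0.59, limma adjusted p = 0.0908). Some genes of the transduction list were at or near 0, while Gnal, Gng8 and Omp were not. Cnga2, the main subunit of the cyclic nucleotide-gated channel, had 5 reads over the carotid body pools and 10 over the adrenal medulla pools. Its partner Cnga4 had 5 carotid body reads and 3 adrenal medulla reads. Stoml3, a membrane protein of olfactory cilia, had 2 carotid body reads and 0 adrenal medulla reads. Ano2, the calcium-activated chloride channel of the cilia, stood at 0.803, 0.725 and 0.667 RPKM in carotid body pools 1, 2 and 3, against 0.0942, 0.124 and 0.0616 RPKM in adrenal medulla pools 1, 2 and 3, below the minimum for testing.

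Omp, the olfactory marker protein, was detected in both tissues. It was at 5.09, 3.16 and 3.70 RPKM in carotid body pools 1, 2 and 3, against 0.137, 0.646 and 9.73 RPKM in adrenal medulla pools 1, 2 and 3, where pool 3 stood above every other library. It was not called (log2 0.86, limma adjusted p = 0.481), but without adrenal medulla pool 3 it was called higher in the carotid body (1.85, adjusted p = 0.000955). The 9 olfactory neuron markers together summed to 23.4 to 25.1 RPKM in the carotid body, against 5.87 to 13.9 RPKM in the adrenal medulla. Of the 3 that could be tested, Gnal and Gng8 were called higher in the carotid body and Omp was not called. The other 6 were below the minimum for testing. Of all genes tested, 14.2% were called higher in the carotid body. That marker sum was below the level of Olfr78 in each carotid body library. With no olfactory neurons measured here to set both against, nothing is read from that order. The part of olfactory neurons in the level of Olfr78 was not tested.

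Of the genes that carry olfactory receptors to the cell surface, those specific to olfactory neurons were near 0. Rtp1 and Rtp2, the receptor-transporting proteins of olfactory neurons, held 8 and 2 reads in the carotid body libraries and 12 and 2 reads in the adrenal medulla libraries. Rtp4, a relative that is induced by interferon in many cells, was read in both tissues, at 25.8 ± 13.0 RPKM in the carotid body, against 22.4 ± 5.84 RPKM in the adrenal medulla (log2 0.11, limma adjusted p = 0.890). Of 7 tested genes of this list, 1 was called higher in the carotid body, 0 were called lower and 6 were not called, near the 14.2% higher and 7.73% lower of all genes tested. The median was 0.11, and 2 genes were lower at an unadjusted p under 0.05 and 0 with voom. The 1 called gene was Reep3, an endoplasmic reticulum protein of the receptor expression-enhancing family (log2 1.20, limma adjusted p = 0.0220), whose call ended when pool 1 (0.0860) or 2 (0.0606) of the carotid body or pool 2 (0.0545) of the adrenal medulla was left out. With the replicate number as a block, Reep2 was also called, lower in the carotid body (-1.04, limma adjusted p = 0.0421).

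Genes known to govern olfactory receptor expression in sensory neurons were split. Lhx2 and Emx2, the homeobox factors of that system, held 1 and 4 carotid body reads, and neither had an adrenal medulla read. The early B-cell factor genes, which encode transcription factors of olfactory neurons and also of other lineages such as adipocytes, were all called higher in the carotid body. Ebf2 averaged 5.63 ± 2.01 RPKM in the carotid body, against 0.272 ± 0.196 RPKM in the adrenal medulla (log2 2.35, limma adjusted p = 2.23e-04). Ebf1 (1.78), Ebf3 (1.76) and Ebf4 (0.79) followed, and the call of Ebf4 ended without adrenal medulla pool 1 (limma adjusted p = 0.0559). Atf5, a stress-responsive factor that acts in olfactory neuron maturation, averaged 136 ± 30.2 RPKM in the carotid body, against 38.7 ± 8.43 RPKM in the adrenal medulla (log2 difference 1.78, adjusted p = 0.00138). Lbr, the lamin B receptor, was the last of 6 called (0.84, limma adjusted p = 0.0214), and fell short of the threshold when any of carotid body pools 1 (0.0638), 2 (0.0764) and 3 (0.0639) or pool 2 of the adrenal medulla (0.0757) was left out. Of 13 tested genes 0 were called lower, also at an unadjusted p under 0.05 and with voom, 6 were called higher and 7 were not called, against 7.73% lower and 14.2% higher of all genes tested. The median was 0.46. Fibroblast markers were higher in the same libraries, 6 of 6, and their part in the values of the early B-cell factor genes was not tested.

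Receptors for the same kinds of ligand were lower than Olfr78 in the carotid body. Ffar3, a receptor for short-chain fatty acids, was at 5.85, 6.54 and 14.3 RPKM in carotid body pools 1, 2 and 3, against 3.11, 3.66 and 5.28 RPKM in adrenal medulla pools 1, 2 and 3, below Olfr78 in every carotid body library, below Olfr558 in pools 1 and 2 and above it in pool 3. It was not called (log2 0.90, limma adjusted p = 0.0963), but was called with the replicate number as a block (adjusted p = 0.0184). Ffar2, its relative, averaged 0.696 ± 0.252 RPKM in the carotid body, against 0.725 ± 0.376 RPKM in the adrenal medulla and was below the minimum for testing. Ffar4, a receptor for long-chain fatty acids, was the 1 called of 2 tested receptors. It averaged 2.09 ± 1.07 RPKM in the carotid body, against 0.228 ± 0.114 RPKM in the adrenal medulla (log2 difference 1.28, limma adjusted p = 0.00525). Of all genes tested, 14.2% were called higher and 7.73% lower. The median of the 2 receptors was 1.09. The lactate receptor gene, listed as Gpr81, was at 0.504, 5.92 and 0.626 RPKM in carotid body pools 1, 2 and 3, against 0.453, 0.299 and 0.574 RPKM in adrenal medulla pools 1, 2 and 3, high only in the carotid body pool rich in adipocyte transcripts.

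Among genes that handle lactate and short-chain fatty acids, 3 of 8 tested were called higher in the carotid body, 0 were called lower and 5 were not called, against 14.2% higher and 7.73% lower of all genes tested. The median was 0.66, and 1 gene was lower at an unadjusted p under 0.05 and 0 with voom. Ldha and Ldhb, the lactate dehydrogenase subunits, were higher by 2.33 and 1.93 on the log2 scale. Ldhb averaged 114 ± 41.2 RPKM in the carotid body, against 28.3 ± 5.22 RPKM in the adrenal medulla (limma adjusted p = 0.00162). Slc16a1, the monocarboxylate transporter MCT1, was at 5.94, 27.1 and 12.3 RPKM in carotid body pools 1, 2 and 3, against 4.57, 3.91 and 1.47 RPKM in adrenal medulla pools 1, 2 and 3 (log2 1.75, limma adjusted p = 0.0394). Its call ended when pool 2 (0.0945) or 3 (0.0945) of the carotid body or pool 2 (0.0696) or 3 (0.0763) of the adrenal medulla was left out, and with carotid body pool 2 and adrenal medulla pool 3 left out together the difference was 0.88 (0.0997). Slc16a7, the transporter MCT2, was not called (0.70, limma adjusted p = 0.0800), but was called with the replicate number as a block (0.0472) and without carotid body pool 3 (0.89, 0.0490).

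**Figure D5:**
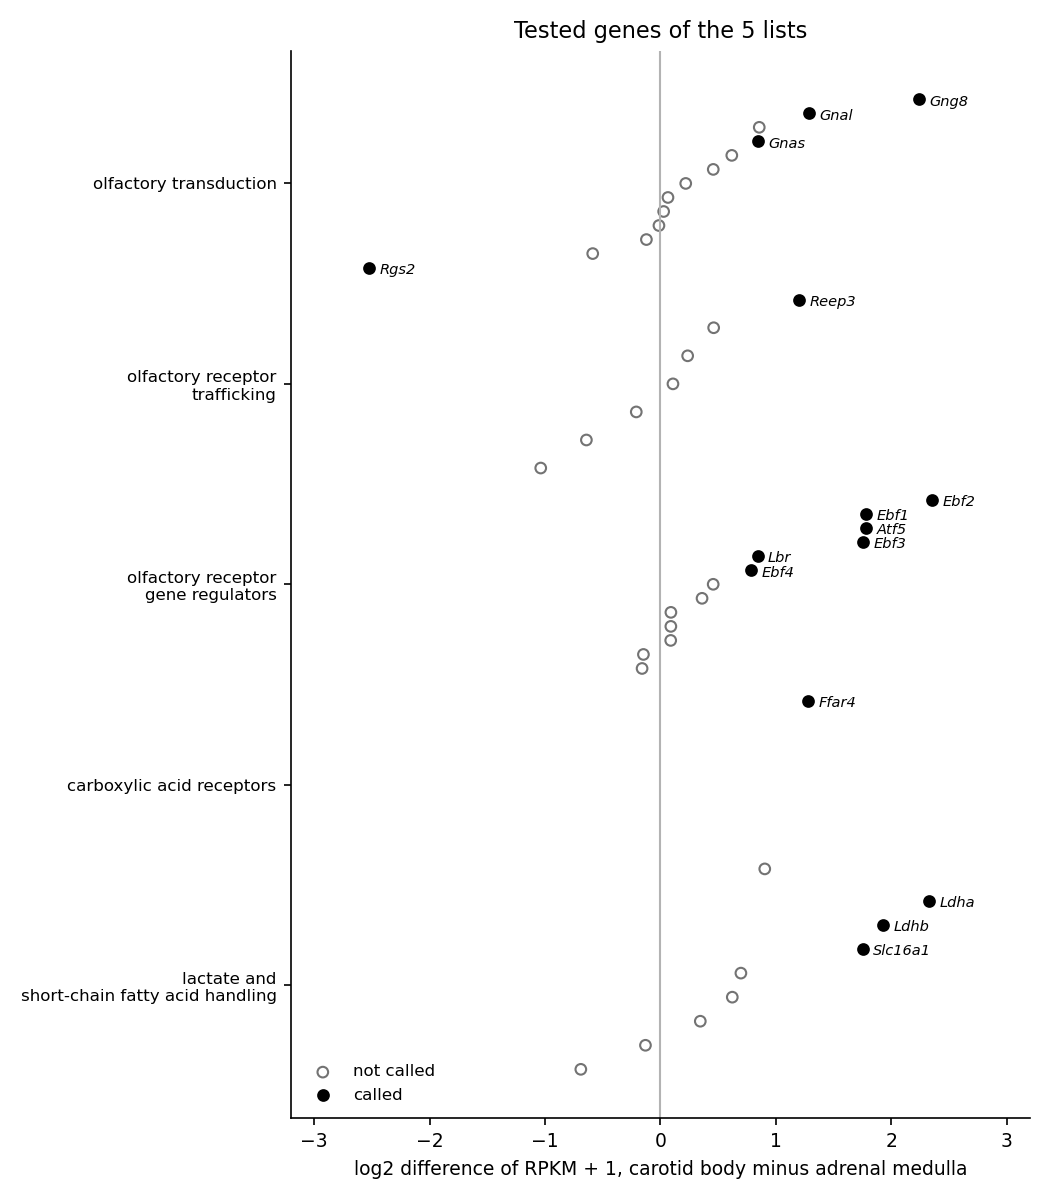
Log2 difference of RPKM + 1, carotid body minus adrenal medulla, for the tested genes of the 5 lists around olfactory receptor signalling and ligands, with filled points for genes called by limma at an adjusted p under 0.05 and open points for the others. Of 43 tested genes, 14 were called higher in the carotid body and Rgs2 alone was called lower, against 14.2% and 7.73% of all genes tested.

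The libraries held 13266225 to 16445925 reads. Adrenal cortex markers such as Star summed to 14.2 to 105 RPKM in the carotid body, highest in pool 1, and 8756 to 12043 RPKM in the adrenal medulla, so the adrenal medulla pools held cortex transcripts. Glia markers were called higher in the carotid body for 6 of 6 tested genes and endothelial markers for 5 of 8, against 14.2% of all genes tested. The labels give pools of the same tissue separate group numbers and say nothing of separate dissections or days, so the adjusted p-values measure only the spread between these pools.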

How the data were processed

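RNA of 6 pools was measured, 3 of carotid body and 3 of adrenal medulla. Per the labels' protocols, RNA went through linear amplification (Amino Allyl MessageAmp II) and fragmentation before Illumina sequencing. Reads were aligned with Bowtie 0.9.8 to mm9, per the submitters' processing notes, and the rule for reads with several matches is not given in the sources used here. The deposited values are RPKM made by the authors, for 23511 rows with a listed mRNA length. The other 3217 rows have none, hold raw counts and were left out of the tests.

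RPKM times length, divided by its smallest value above 0 in a library, was whole within 0.01 for 106276 of 106276 values above 0, and all reads summed to the RPKM denominator in 6 of 6 libraries, which gives the reads and depths used. Amplified reads have no molecular identifiers, so intervals and the floor of 3 counts cover counting error only. Tissues were compared on log2(RPKM + 1) by limma 3.58.1 (R 4.3.3), two-sided, with an empirical Bayes trend and no block, over genes reaching 1 RPKM in at least 3 libraries, with Benjamini-Hochberg adjustment over all of them. It was tested on simulated data. Single values per library were compared by exact permutation (scipy 1.17.1). Coding sequences came from GENCODE M21 (GRCm38) and were aligned with Biopython 1.88.

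The deviations of same-numbered pools from their tissue means correlated across genes at 0.26, 0.13 and 0.47 for numbers 1, 2 and 3. Pools of different numbers were not set against each other. As the deviations within a tissue cancel out for each gene, positive values here mean opposite covariation, in sum, with pools of the other numbers. Same-numbered pools thus varied together, but with 3 pools of each tissue this does not settle whether the numbers pair the samples. The main fit and the permutation tests left the numbers out. Blocked values are given where a call changed. Genes, lists and tests were chosen with earlier results of these data known. Text names the pair, the 10 other Olfr rows with the most reads, the 3 nearest genes on each side, the 5 genes most like each receptor, up to 6 called genes a list and a few fixed genes. Alternatives were another pseudocount, no filter, 2 scalings, voom on recovered reads, the block and left-out pools.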

Additional observations from a re-analysis of the deposited data

How the results depend on the processing

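Both log2 differences kept their direction in every alternative run. For Olfr78 the difference of 5.61 became 6.54 with a pseudocount of 0.1, 6.73 with voom on recovered reads and 5.16 with carotid body pool 2 and adrenal medulla pool 3 left out together, and ranged from 5.35 to 5.85 without 1 pool. For Olfr558 the difference of 3.64 became 6.02 with the pseudocount of 0.1 and 6.93 with voom, and ranged from 3.53 to 3.69 without 1 pool. A pseudocount of 1 shrinks these values by its construction, since both genes are near 0 in the adrenal medulla. Over all genes, limma called 1896 higher and 1033 lower in the carotid body, and 2257 and 1356 with the replicate block. Without both pools named above it called 2067 lower, and without 1 pool 692 to 1464 lower, so calls to the carotid body made up 48.3% of calls without both pools, against 64.7%. Under quantile scaling that share was 55.0%. The cause was not tested. The trafficking list had 1 called gene, 0 with no filter (1 higher and 1 lower at an unadjusted p under 0.05), 2 with the replicate block and 0 to 1 without 1 pool. The carboxylic acid receptor list had 1, and 2 with the replicate block. Gng8, Gnal, Ebf2, Ebf3, Atf5, Ffar4, Ldha and Ldhb kept their calls in every alternative run. With no filter, the adjusted p was 0.0512 for Rgs2, 0.0670 for Ebf1, 0.0877 for Reep3, 0.107 for Gnas, 0.113 for Th and 0.181 for Slc16a1. Under quantile scaling Adcy3 was called lower in the carotid body (-0.73, limma adjusted p = 0.0324) and Ebf4 was not called (0.0520). Beyond the values given beside the results, the block changed no other call of a gene named here. The difference in summed reads of the other Olfr rows, carotid body minus adrenal medulla, was 13.1 RPM and 7.57 to 22.3 without 1 pool. For the number of rows with a read it was -10.3, and -16.0 to -7.00 without 1 pool. For rows with at least 3 reads it was -0.333, so the larger difference rests on rows with fewer reads. Depth limits what can be said of Olfr558 in the adrenal medulla, where it rests on 13 reads.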

Other observations

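A few receptor rows were read more in the adrenal medulla than in the carotid body, all at low levels and named after their values were seen. Olfr574, also on chromosome 7, held 0 reads in all 3 carotid body libraries and 10 in each adrenal medulla library, at least 9.82-fold higher in the adrenal medulla against a floor of 3 counts over the carotid body group. Its adrenal medulla level was 0.715, 0.673 and 0.584 RPKM in pools 1, 2 and 3, and none of its 1012 words of 30 bases occurs in another annotated transcript. Olfr456 held 4, 2 and 4 reads in carotid body pools 1, 2 and 3, against 12, 15 and 23 reads in adrenal medulla pools 1, 2 and 3, but shares 41.3% of its words with other genes, mostly Olfr457, so reads of the 2 genes cannot be told apart there. Olfr330 held 0, 0 and 1 reads in the carotid body and 14, 2 and 11 in the adrenal medulla, and Olfr212 held 0, 0 and 1 in the carotid body and 2, 1 and 2 in the adrenal medulla. Olfr574, Olfr456, Olfr330 and Olfr212 were the 4 of 1121 other rows whose adrenal medulla libraries all lay above the carotid body libraries. Of all genes tested, 14.7% had all adrenal medulla libraries above all carotid body libraries. As 1029 of the 1121 rows had 0 reads and could not separate, the shares are not comparable. In the other direction, Olfr33 and Olfr1036 were the 2 of 1121 other rows whose carotid body libraries all lay above the adrenal medulla libraries. The share of 22.3% over all genes tested is not comparable with this count either, for the same reason. Olfr33 held 20 carotid body reads and 0 adrenal medulla reads. Olfr1036 held 2, 1 and 3 reads in the carotid body and 0, 0 and 1 in the adrenal medulla, so its separation rests on scaling to depth. None of these rows reached the minimum for testing. Of the other rows, 19 had reads only in the carotid body and 42 only in the adrenal medulla, and 3 and 4 of these held more than 3 reads.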
